A study of Rattus norvegicus with 6 samples.

Results

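Expression of 10 genes of the circadian clock was followed in RNA sequencing libraries of rat bone, out of 32883 genes in the deposited table. They are Arntl (also called Bmal1), Npas2, Clock, Per1, Per2, Per3, Nr1d1, Nr1d2, Dbp and Cry1, and each was taken by its Ensembl gene identifier. The genes were selected on their place in the clock and on their exercised and control levels in this same table, so those levels are given as a description. The exercised group held 3 wild-type rats given treadmill exercise, and the control group held 3 wild-type rats with no treatment. The labelled tissue is bone, and the labelled cell type is osteocyte, a cell enclosed in mineralized matrix. The title describes moderate-intensity running by adult rats, while age, sex, strain, bone site, training duration and time of day at collection were not stated in the labels. The comparison asks whether the genes of the opposite arms of the clock differ in opposite directions between the groups. Because the collection times are unknown, an effect of running and a difference in collection time cannot be told apart.

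The clock is a feedback loop of transcription. ARNTL pairs with CLOCK, or with its close relative NPAS2, and the pair activates genes that carry E-boxes, among them the Per, Cry and Nr1d genes and Dbp. PER and CRY proteins then inhibit the pair, and the nuclear receptors NR1D1 and NR1D2 (REV-ERBs) repress Arntl and Npas2 through sites called ROREs. In mouse tissues, Arntl and Npas2 transcripts therefore cycle roughly opposite to those of Nr1d1, Dbp and the Per genes, and clock genes also cycle in rodent bone cells.

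The pairing of symbols with identifiers came with the choice of the genes. The RefSeq gene table of rat assembly GRCr8 lists all 10 symbols (Arntl as a synonym of Bmal1), but its Ensembl column is empty, so it neither contradicts nor supports the pairing. For the same reason, none of 21 further clock genes (Cry2, Rora, Nfil3, Tef, Hlf and others) and none of 36 markers of bone, marrow, muscle, fat and vessel cells could be read out. The labelled cell type was therefore not checked against its markers. In bulk bone, fewer cells of a type and less RNA per cell cannot be told apart.

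Promoter sequences from RefSeq (GRCr8) were searched for the elements through which the loop acts, in the 250 bases before each annotated gene start and on both strands. The motifs were the E-box CACGTG, the E-prime box CACGTT (a variant used by Per2), the D-box TTANGTAA (bound by DBP and its relatives, N being any base) and the RORE (GGTCA preceded by A, any 2 bases, T and any base). An entry was found for 9 of the 10 genes, Cry1 being the exception, with 11 windows in all, and 4 windows of 3 genes held a match. No match was found for Npas2, Clock, Per1, Per3, Nr1d2 or Dbp. The share of all windows holding any of these motifs was not computed. Of these windows, 3 are shown because they carry a RORE, an E-prime box with a D-box, and an E-box, one for each link of the loop. Capitals mark the matches. The Arntl window is chr1:176766078-176766327 on the plus strand, the Per2 window is chr9:99496994-99497243 on the minus strand, and the Nr1d1 window is chr10:84229455-84229704 on the minus strand.
Arntl: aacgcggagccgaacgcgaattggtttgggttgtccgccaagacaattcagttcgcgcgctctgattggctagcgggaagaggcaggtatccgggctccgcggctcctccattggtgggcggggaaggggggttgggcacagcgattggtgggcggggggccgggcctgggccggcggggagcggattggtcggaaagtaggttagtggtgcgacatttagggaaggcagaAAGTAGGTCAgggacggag
Per2: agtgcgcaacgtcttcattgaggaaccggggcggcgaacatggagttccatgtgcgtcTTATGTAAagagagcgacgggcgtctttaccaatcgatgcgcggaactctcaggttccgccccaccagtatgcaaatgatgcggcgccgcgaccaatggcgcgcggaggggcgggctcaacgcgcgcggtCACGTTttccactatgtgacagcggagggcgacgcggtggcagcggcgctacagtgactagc
Nr1d1: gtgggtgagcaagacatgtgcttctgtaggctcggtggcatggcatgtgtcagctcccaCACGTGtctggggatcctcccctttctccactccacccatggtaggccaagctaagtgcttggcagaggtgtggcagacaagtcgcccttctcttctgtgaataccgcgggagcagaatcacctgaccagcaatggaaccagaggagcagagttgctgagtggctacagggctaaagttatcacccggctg
The RORE of Arntl ends 10 bases before the gene start. In Per2, the D-box begins 192 bases and the E-prime box 62 bases before the start, and the E-box of Nr1d1 begins 191 bases before the second of 2 annotated starts. The window of its other start, chr10:84231813-84232062 on the minus strand, held an E-prime box on the opposite strand. On the minus strand that other start comes first, so the E-box shown lies downstream of it. Of all 33469 RefSeq windows, 5.59% held the E-box, 4.07% the E-prime box, 2.04% the D-box and 2.29% the RORE. A match is a description of letters and not of binding. Elements farther upstream, or in introns outside the 250 bases before an annotated start, are not covered by the windows.

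Libraries held 14056743 to 18126584 counts. On the first principal component of all 14495 genes tested, which held 65.3% of the variance, exercised replicate 3 (score 116.8) and control replicate 3 (score -126.1) stood at opposite ends. Values without single libraries, or without both of these, are given beside each gene whose value they moved by more than 1.5 times. Levels are in CPM, counts relative to a library size that TMM factors correct for composition. They are compared between libraries and not between genes, because they are not divided by gene length.

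Arntl and Npas2, both of the activator arm, were lower in every exercised library than in any control library, with exercised means of 0.214 and 0.155 times the control means. Dbp, an output gene of the opposite arm, was higher in every exercised library, at 2.76 times the control mean. The Per genes had higher means in exercised bone with overlapping groups, and the fitted differences of Nr1d1 and Nr1d2 were smaller than their SE. None of these differences passed the adjusted threshold across all genes.

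**Figure D1:**
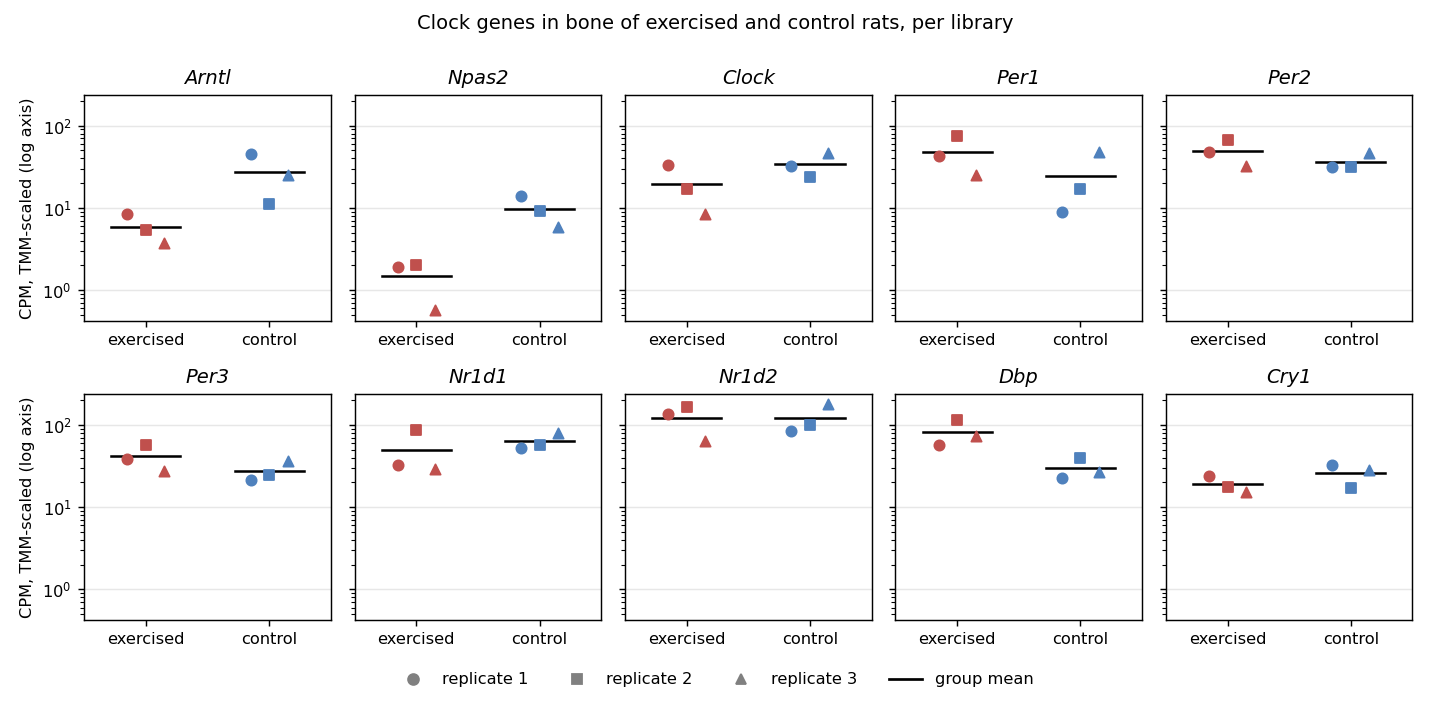
TMM-scaled CPM (log axis) of each of the 10 clock genes in each library, exercised left and control right, with marker shapes for replicates and a bar for the group mean. The exercised points of Arntl and Npas2 lie below all control points, those of Dbp lie above, and the other 7 genes overlap.

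Arntl (ENSRNOG00000014448) encodes the common partner of both activator pairs. It had 8.35, 5.33 and 3.74 CPM in exercised replicates 1, 2 and 3, against 45.5, 11.1 and 24.99 CPM in control replicates 1, 2 and 3. The groups did not overlap, although the lowest control library, replicate 2, came close to the highest exercised one, replicate 1. Their exact 95% Poisson intervals, which cover counting error only, overlapped. They were 9.54 to 12.8 CPM in control replicate 2 and 6.94 to 9.96 CPM in exercised replicate 1. The means were 5.81 ± 2.34 CPM in exercised rats and 27.2 ± 17.3 CPM in controls (SD, n = 3 each), a log2 fold difference of -2.23 (SE 0.58).

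Npas2 (ENSRNOG00000013408), the relative of Clock, had the largest fitted difference of the 10 genes. Its counts were 28, 29 and 10 in exercised libraries, against 205, 156 and 84 in control libraries, which is 1.90, 2.03 and 0.567 CPM against 13.96, 9.18 and 5.83 CPM. The groups did not overlap. Exercised rats had 0.155 times the control mean, a log2 fold difference of -2.69 (SE 0.61). The 10 counts of exercised replicate 3 carry an exact 95% Poisson interval of 0.272 to 1.04 CPM, and the 84 counts of control replicate 3 one of 4.65 to 7.22 CPM, both covering counting error only.

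Clock (ENSRNOG00000002175), the usual partner of ARNTL, differed less. It had 33.5, 16.9 and 8.51 CPM in exercised libraries, against 32.8, 23.9 and 46.6 CPM in control libraries. Exercised replicate 1 lay inside the control range, so the groups overlapped, and the log2 fold difference was -0.81 (SE 0.53). It was -1.44 (SE 0.48) without exercised replicate 1, when the groups no longer overlapped, as in 16.5% of all genes. It was -0.45 (SE 0.43) without exercised replicate 3 and -0.53 (SE 0.58) without control replicate 3. Without both replicate 3 libraries it was -0.17 (SE 0.40).

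Dbp (ENSRNOG00000021027) encodes a transcription factor that binds D-boxes and is a direct E-box target. It had 56.5, 115.8 and 73.4 CPM in exercised libraries, against 22.4, 39.7 and 26.7 CPM in control libraries. Every exercised library lay above every control library. The means were 81.9 ± 30.5 CPM in exercised rats and 29.6 ± 9.02 CPM in controls (SD, n = 3 each), a log2 fold difference of 1.47 (SE 0.37).

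The Per genes encode the PER repressors of the loop. Per1 (ENSRNOG00000007387) had 43.1, 74.7 and 24.9 CPM in exercised libraries, against 8.92, 17.0 and 47.9 CPM in control libraries. Control replicate 3 alone reached the exercised range, and the log2 fold difference was 0.95 (SE 0.69). Per2 (ENSRNOG00000020254) had 47.4, 66.2 and 32.2 CPM in exercised libraries, against 31.3, 31.8 and 46.9 CPM in control libraries. As for Per1, control replicate 3 was the only control library inside the exercised range, and the log2 fold difference of Per2 was 0.41 (SE 0.34). Per3 (ENSRNOG00000018413) had 38.2, 57.7 and 27.8 CPM in exercised libraries, against 21.6, 24.3 and 36.5 CPM in control libraries, with a log2 fold difference of 0.59 (SE 0.36). Its groups overlapped through the same control library.

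The size of the Per differences rested on single libraries in both directions. Per1 differed by 1.88 (SE 0.58) without control replicate 3 and 2.18 (SE 0.45) without both replicate 3 libraries, but by 0.39 (SE 0.76) without exercised replicate 2 and 0.55 (SE 0.66) without control replicate 1. Per2 differed by 0.62 (SE 0.37) without control replicate 3, 0.63 (SE 0.29) without exercised replicate 3 and 0.85 (SE 0.26) without both, but by 0.07 (SE 0.36) without exercised replicate 2, where it was close to 0. Per3 differed by 1.06 (SE 0.29) without both replicate 3 libraries, but by 0.21 (SE 0.38) without exercised replicate 2.

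Nr1d1 and Nr1d2, the receptors that repress Arntl and Npas2, had differences closer to 0 than that of Dbp, and only Nr1d1 had a lower mean in exercised rats. Nr1d1 (ENSRNOG00000009329) had 32.4, 85.9 and 29.0 CPM in exercised libraries, against 51.9, 57.2 and 79.7 CPM in control libraries. Exercised replicate 2 was the highest of all 6 libraries and the other exercised libraries were the lowest, and the log2 fold difference was -0.36 (SE 0.47). Nr1d2 (ENSRNOG00000046912) had 136.2, 166.2 and 63.7 CPM in exercised libraries, against 83.9, 99.0 and 177.1 CPM in control libraries. Its groups overlapped widely, with a log2 fold difference of 0.02 (SE 0.46). Without exercised replicate 2, the difference of Nr1d1 was -1.08 (SE 0.35) and that of Nr1d2 was -0.32 (SE 0.54). Every exercised library then lay below every control library for Nr1d1, while 15.7% of all genes did not overlap in either direction. Without control replicate 3 and exercised replicate 3, the differences were 0.12 (SE 0.48) for Nr1d1 and 0.73 (SE 0.26) for Nr1d2. Leaving out other single libraries moved Nr1d1 between -0.48 and -0.09 and Nr1d2 between -0.18 and 0.42.

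Cry1 (ENSRNOG00000006622) encodes a CRY repressor whose transcript in mouse tissues is delayed against the other E-box targets, so it was kept out of both arms. It had 24.0, 17.7 and 15.1 CPM in exercised libraries, against 32.2, 16.8 and 28.1 CPM in control libraries. Control replicate 2 lay inside the exercised range, and the log2 fold difference was -0.44 (SE 0.33). It was -0.67 (SE 0.30) without control replicate 2, when the groups no longer overlapped, as in 35.6% of all genes. It was -0.25 (SE 0.39) without control replicate 1 and -0.23 (SE 0.39) without both replicate 3 libraries.

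**Figure D2:**
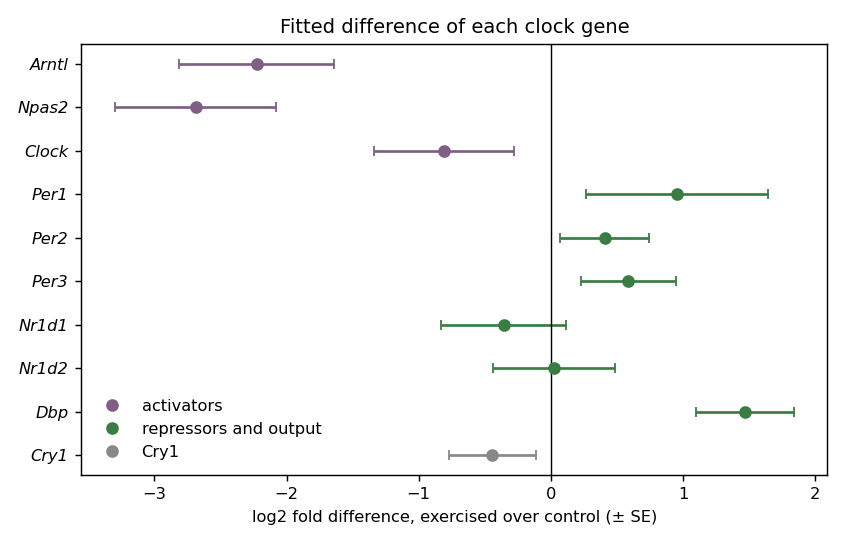
Log2 fold difference of each clock gene, exercised over control, from the edgeR fit, with bars of 1 SE on each side. Arntl (-2.23), Npas2 (-2.69) and Clock (-0.81) lie below 0, Dbp (1.47) and the 3 Per genes lie above, Nr1d1 (-0.36) and Cry1 (-0.44) lie below, and Nr1d2 lies at 0.02.

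None of the 10 genes passed the fit across all genes. With Benjamini-Hochberg adjustment of edgeR's quasi-likelihood test, an adjusted p under 0.05 was reached by 0 of 14495 genes (0%). The adjusted p in edgeR was 0.889 for 8 of the clock genes, 0.895 for Nr1d1 and 0.995 for Nr1d2. An unadjusted p under 0.05 was reached by 247 genes (1.7%), Npas2, Dbp and Arntl among them at ranks 4, 7 and 9. When no gene differs, that threshold is expected to admit a larger share. DESeq2 called 1 of the same genes (0.0069%), DESeq2 without the low-count filter 1 of 20727 (0.00482%) and limma voom 0 (0%), none of them a clock gene, and the smallest adjusted p of a clock gene was 0.0872 (Npas2, DESeq2). The groups did not overlap in 3 of the 10 clock genes, against 7.37% of all genes. Higher in exercised libraries was 1 clock gene, against 3.37% of all genes, and lower were 2, against 4.01%. The genes were chosen with results of this comparison known, so these counts describe them and are no separate evidence. The median size of the log2 fold difference was 0.70 over the clock genes and 0.32 over all genes tested, and the median SE over all genes was 0.42. The choice of genes bears on the larger median of the clock genes too, so it is no separate evidence.

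The number of clock genes whose groups did not overlap changed when libraries were left out, as did the share of all genes. With fewer libraries, groups separate more easily. Apart from rescaling and filtering, the number could therefore only stay or rise, and a rise does not by itself single out a library. Without control replicate 3, the groups did not overlap in 6 clock genes, as Per1, Per2 and Per3 joined Dbp on the higher side, but 17.2% of all genes then did not overlap. In the scaling of all 6 libraries, Per2 had 32.2 CPM in exercised replicate 3 and 31.8 CPM in control replicate 2. Their exact 95% Poisson intervals, 29.6 to 35.0 and 29.2 to 34.6 CPM, overlapped, as did those of Per3 in these libraries. Without exercised replicate 3 there were 5 such clock genes, against 12.1% of all genes. Without both libraries there were 7, against 32.7% of all genes. Without exercised replicate 1 there were 4, Clock joining the lower side, against 16.5% of all genes. Without exercised replicate 2 there were 4, Nr1d1 joining the lower side, against 15.7%. Without control replicate 2 there were 4, Cry1 joining the lower side, against 35.6%, which is near the share among the clock genes. Without control replicate 1 there were 3, against 10.3%. Scaling by library size alone gave 4, Per3 being the addition, against 6.44% of all genes.

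Within each group, the 6 repressor and output genes tended to be high or low in the same libraries. Exercised replicate 2 had the highest exercised value in 6 of 6 of these genes, and exercised replicate 3 the lowest in 5 of 6. Control replicate 3 had the highest control value in 5 of 6, Dbp being the exception, and control replicate 1 the lowest in 6 of 6. Exercised replicate 3 also had the lowest exercised value of all 3 activators, so both arms were low together in that library. Among controls, the lowest activator value was in replicate 2 for 2 genes and in replicate 3 for 1 gene. The replicate 3 libraries are also the ends of the first component, and the part of that spread in the levels of the clock genes was not tested.

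The position of a library on both arms was therefore also read as a ratio within the library, in which the scaling of the library cancels. The mean log2 CPM of the activators (Arntl, Npas2 and Clock) was 2.37 ± 0.79 in exercised rats and 4.27 ± 0.51 in controls (SD, n = 3 each). That of the repressor and output genes (Per1, Per2, Per3, Nr1d1, Nr1d2 and Dbp) was 5.81 ± 0.61 in exercised rats and 5.31 ± 0.48 in controls. The activators thus differed by -1.90 and the other arm by 0.50, which is less than the spread of 0.55 between libraries (pooled SD). Most of the separation lay in the activators.

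The difference between the arms, activators minus repressor and output genes, was -2.64, -3.92 and -3.74 in exercised replicates 1, 2 and 3, against -0.07, -1.49 and -1.55 in control replicates 1, 2 and 3. All exercised libraries lay below all control libraries. The means were -3.43 ± 0.69 in exercised rats and -1.04 ± 0.84 in controls (SD, n = 3 each), a difference of -2.39 on the log2 scale with a pooled SD of 0.77. No p is given, since the genes and arms were chosen with these values known.

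**Figure D3:**
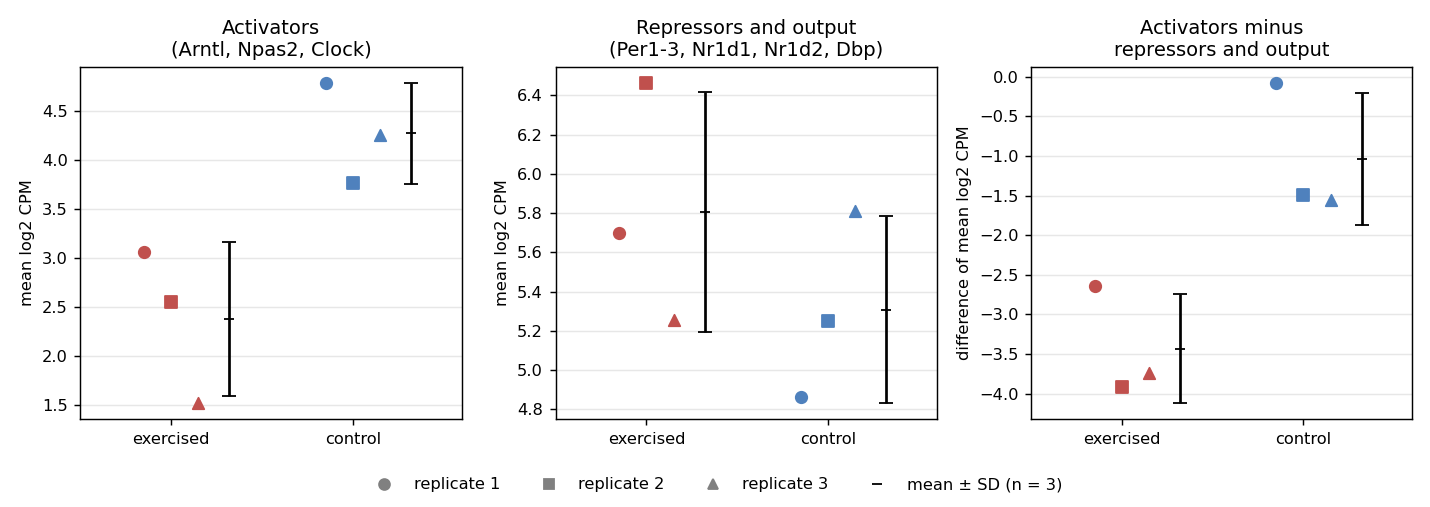
Mean log2 CPM of the activators (left), of the repressor and output genes (middle) and their difference (right) in each library, exercised left and control right, with mean ± SD beside the points. The exercised libraries lie below the control libraries in the left and right panels and overlap with them in the middle panel.

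The ratio of Dbp to Arntl counts also separated the groups. It was 6.77, 21.7 and 19.6 in exercised replicates 1, 2 and 3, against 0.493, 3.59 and 1.07 in control replicates 1, 2 and 3. The ratio was lowest in control replicate 1, the only library with more Arntl than Dbp counts. Per1 over Npas2 counts was 22.7, 36.8 and 43.9 in exercised libraries, against 0.639, 1.85 and 8.21 in control libraries. These groups did not overlap, even though Per1 alone overlapped through control replicate 3. Gene length enters such a ratio equally in every library, so the ratio can be compared between libraries but is no ratio of transcript numbers.

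Of the 18 ratios of an activator to a repressor or output gene, 18 had a lower mean in exercised rats and 15 did not overlap between the groups. These ratios share 9 genes and 6 libraries and are not independent. The lower mean in all 18 follows from the gene values, since every activator differed further downward than any gene of the other arm. Most of the 15 include Arntl, Npas2 or Dbp, whose groups did not overlap on their own. The share of other gene pairs without overlap was not computed, so both counts only describe the chosen genes. The 3 that overlapped were Arntl to Nr1d1, Clock to Nr1d1 and Clock to Nr1d2, so the receptors separated the groups less than Dbp and the Per genes. The largest difference was that of Npas2 to Dbp, at -4.21 on the log2 scale, with log2 ratios of -6.95 to -4.87 in exercised libraries, against -2.19 to -0.68 in control libraries. The smallest was that of Clock to Nr1d1, at -0.46.

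**Figure D4:**
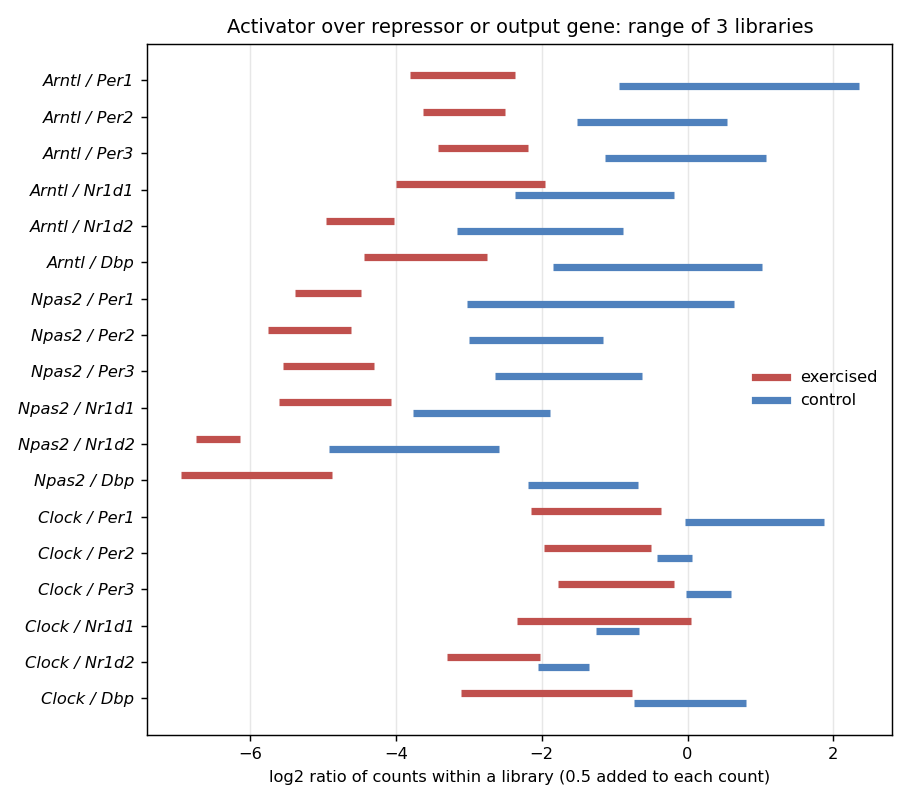
Range over 3 libraries of the log2 ratio of counts, activator over repressor or output gene, for 18 gene pairs, exercised bar above control bar. The exercised bar lies wholly left of the control bar in 15 pairs, and the overlaps are the 2 pairs of Clock with Nr1d1 and Nr1d2 and the pair of Arntl with Nr1d1.

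Other genes had profiles closer to Arntl and Dbp than any clock gene did. With 9211 other genes searched and only a few clock genes, a closer other gene was likely in advance. The contrast therefore cannot decide how alike the clock genes are, and the distances are given as a description. Likeness was the root mean square distance between log2 CPM profiles over the 6 libraries, each centred on its own mean, among 9211 other genes averaging 10 CPM or more. The nearest to Arntl was ENSRNOG00000057522 (distance 0.382), with 31.5 ± 11.6 CPM in exercised rats and 92.0 ± 34.3 CPM in controls (SD, n = 3 each), ahead of ENSRNOG00000003546 (0.419). The nearest clock gene to Arntl was Npas2, at 0.713. Npas2 averaged under 10 CPM in both groups, so the clock genes were not held to the floor set for the other genes. The nearest to Dbp was ENSRNOG00000058388 (0.347), with 69.4 ± 7.39 CPM in exercised rats and 37.9 ± 11.1 CPM in controls, ahead of ENSRNOG00000014879 (0.401). The nearest clock gene to Dbp was Per3, at 0.604. No table used here names these 4 genes.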

How the data were processed

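RNA sequencing counts of 32883 rat genes in 6 bone libraries were used. The deposited values are named FPKM per the file headers, but they were treated as counts: all are whole and the columns total 14056743 to 18126584. StringTie, edgeR, HISAT2 2.1.0, fastp 0.19.5 and CASAVA 1.8 are named in the submitters' processing notes, without role or order. Those notes name the builds hg38 and mm10, while all identifiers carry the rat prefix; the rat build is not given in the sources used here.

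All genes kept by filterByExpr (minimum count 10, minimum total 15) were tested, 14495 in number, the 10 clock genes included, with edgeR 4.0.16 (TMM, quasi-likelihood test, Benjamini-Hochberg adjustment, threshold 0.05) in R 4.3.3. The SE is the log2 fold difference divided by the square root of F. The alternatives tried were limma 3.58.1 (voom), DESeq2 1.42.0, other scalings, no filter, a replicate block and leaving out libraries. The functions were tested on simulated counts. Arm means used log2 CPM with a prior count of 2, and pair ratios had 0.5 added to each count. The named genes are the 10 clock genes and, for Arntl and Dbp, the 2 nearest profiles among genes averaging 10 CPM or more. The clock genes, arms and lists were chosen with earlier results of these data known. Nothing beyond the design text's 3 rats per group says that libraries are separate animals; a p-value covers the spread among the 6 libraries. No pair of libraries agreed within sampling noise (chi-square per degree of freedom at least 66.3).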

Additional observations from a re-analysis of the deposited data

How the results depend on the processing

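The number of genes past the adjusted threshold was 0 by edgeR under all scalings tried, without the filter, with voom, with the replicate block and without any 1 library (0 to 0). DESeq2 gave 1, DESeq2 without the low-count filter (an alternative chosen after seeing the data) gave 1, and an unadjusted p under 0.05 gave 247. With the replicate block, 212 genes had an unadjusted p under 0.05. With 1 library left out, the number of such genes in edgeR ran from 54 (without control replicate 1) to 1315 (without control replicate 2). The labels state no pairing of libraries by replicate number. The correlation of same-numbered deviations was 0.31 for number 1, -0.41 for number 2 and -0.49 for number 3. Of 6 libraries, 1 correlated best with its own number. With so few libraries per group, these values cannot exclude a pairing. Arntl, Npas2, Clock, Per1, Per2, Per3, Dbp and Cry1 kept their direction in all 15 alternatives, and none was called in any. The log2 fold difference ran from -2.60 to -1.64 for Arntl, -3.002 to -2.29 for Npas2 and 1.09 to 1.73 for Dbp, but from -1.44 to -0.17 for Clock, 0.39 to 2.18 for Per1, 0.066 to 0.85 for Per2, 0.21 to 1.06 for Per3 and -0.67 to -0.23 for Cry1. For Arntl, Npas2 and Dbp, whose groups do not overlap, this was fixed by the choice of genes. Nr1d1 changed sign, to 0.12, without control replicate 3 and exercised replicate 3, and ran from -1.08 to 0.12 with libraries left out. Nr1d2 has no direction: it was -0.0030 by DESeq2, -0.0030 with median-of-ratios factors, -0.0065 by DESeq2 without the filter, and between -0.32 and 0.73 with libraries left out. The difference between the arms ran from -2.79 to -1.91 with libraries left out. It ran from -2.86 to -2.01 with Clock or Npas2 left out or Cry1 added to the activators. Leaving out Arntl or Dbp was not tried. The number of clock genes with groups that do not overlap was 3 to 7 with libraries left out (7 without control replicate 3 and exercised replicate 3), while the share of all genes ran from 10.3% to 35.6%, and 4 by library size alone, which adds Per3. Leaving out libraries makes it easier for groups not to overlap, so a rise in that number was partly built in. Other causes of the changes were not tested. Counts per library were lowest for Npas2, at 28, 29 and 10 in exercised rats, and counting error there is wider than the difference between exercised replicates 1 and 2.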
